A study of Mus musculus with 13 samples.

Results

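The Serpina3 genes of the mouse are a cluster of neighboring paralogues on chromosome 12 that encode secreted and intracellular serine protease inhibitors. Described here are 8 of them in parametrial white adipose tissue (pmWAT): Serpina3b, Serpina3c, Serpina3f, Serpina3g, Serpina3i, Serpina3k, Serpina3m and Serpina3n. They were selected by gene symbol, with the difference between the genotypes in these same libraries already known, so their fold changes are given as a description and without a p-value. The 8 genes are 8 of the 33618 Ensembl identifiers in the count table, and all 8 were among the 16753 genes that passed the filter on low counts.

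A serpin inhibits a protease by offering an exposed stretch, the reactive center loop, as bait. The protease cuts the loop after the residue named P1, the loop snaps into the body of the serpin, and the protease stays trapped. The P1 residue therefore weighs heavily on which proteases a serpin can trap. Humans have a single SERPINA3, alpha-1-antichymotrypsin, an acute-phase protein made mostly in liver, whereas the mouse carries many copies whose loops have diverged. In mice, Serpina3n is known as an inhibitor of granzyme B and leukocyte elastase, Serpina3g (Spi2A) as an intracellular inhibitor of cathepsins B and L in leukocytes, and Serpina3k (contrapsin) as an abundant liver-derived plasma inhibitor of trypsin-like proteases.

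Whole pmWAT was profiled by bulk strand-specific mRNA sequencing, 1 library per female mouse, with 7 libraries labelled Lmna fl/fl and 6 labelled Lmna iADKO. Both groups carry Lmna alleles flanked by loxP sites around exons near the 3' end of the gene, and both received tamoxifen at 50 mg/kg on 5 consecutive days at 12 to 14 weeks of age. The iADKO mice (Lmna fl/fl, Adipoq-CreERT2+/–) also carry a Cre recombinase that tamoxifen activates in adipocytes only, so the other cells of the depot keep the unrecombined alleles. The tissue was collected 2 weeks posttamoxifen.

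Total counts per library lay between 18854223 and 19776491. Lmna itself was at 74.7 to 98.5 CPM (read counts scaled to the size of each library) in fl/fl and at 80.1 to 109 CPM in iADKO, with a log2 difference of 0.19 (SE 0.08, adjusted p = 0.0785). Gene-level counts also cover Lmna exons outside the floxed stretch and RNA of other cells, so this value does not check the genotype labels, which are used as given. The tissue showed its adipocyte markers (Adiponectin, Adipoq, at 961 to 2609 CPM over all mice), and all 10 adipocyte markers were lower in iADKO, by 0.61 to 1.15 on the log2 scale. Of the other marker lists, 6 of 9 macrophage, 4 of 10 lymphocyte, 2 of 8 neutrophil and mast cell, 2 of 7 uterus and ovary and 1 of 10 progenitor genes rose and 3 of 8 endothelial genes fell in edgeR, where 14.1% of all genes tested were higher and 16.3% lower. By limma on the deposited log2 values none of the uterus and ovary genes was called. No mesothelial or skeletal muscle marker passed the threshold in edgeR (2 and 0 of 8 at an unadjusted p under 0.05, and 1 and 0 called by DESeq2). Fewer cells of a type and less RNA per cell cannot be told apart in bulk tissue.

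The loops of the 8 genes show how far the copies have diverged at the site that meets the protease. Below is the coding stretch of 16 codons (48 bases) from the hinge of each loop to the codon after P1, in the genome build GRCm39 (mm39) with the GENCODE vM39 Ensembl canonical transcript. Each stretch lies in the last coding exon of its gene, and capitals mark the P1 codon, codon 15 of the 16.
Serpina3n, chr12:104379707-104379754, plus strand: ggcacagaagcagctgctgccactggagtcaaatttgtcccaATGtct
Serpina3b, chr12:104104924-104104971, plus strand: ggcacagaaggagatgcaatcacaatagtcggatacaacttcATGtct
Serpina3c, chr12:104113599-104113646, minus strand: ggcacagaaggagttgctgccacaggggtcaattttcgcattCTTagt
Serpina3k, chr12:104311528-104311575, plus strand: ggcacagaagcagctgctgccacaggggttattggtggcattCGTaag
Serpina3m, chr12:104360028-104360075, plus strand: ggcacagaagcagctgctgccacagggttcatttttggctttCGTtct
Serpina3i, chr12:104234739-104234786, plus strand: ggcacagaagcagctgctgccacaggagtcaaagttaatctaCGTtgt
Serpina3f, chr12:104186504-104186551, plus strand: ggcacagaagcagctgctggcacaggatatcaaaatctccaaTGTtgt
Serpina3g, chr12:104207331-104207378, plus strand: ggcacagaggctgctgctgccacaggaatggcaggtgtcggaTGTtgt
By the genetic code, P1 is methionine in Serpina3n and Serpina3b, leucine in Serpina3c, arginine in Serpina3k, Serpina3m and Serpina3i, and cysteine in Serpina3f and Serpina3g. Over the coding sequences of these transcripts, Serpina3k and Serpina3m were identical at 92% of aligned bases and Serpina3f and Serpina3i at 91.4%. The lowest of the 28 pairs was Serpina3b and Serpina3i at 75.2%. The canonical transcript of Serpina3g encodes only 248 residues, against 408 to 445 in the other members. Pairs with Serpina3g were therefore compared over only part of the coding sequence.

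Such similarity matters for counting reads, so the annotated transcripts were compared in words of 100 bases. Words shared with another annotated gene made up 0% of Serpina3b, 0.915% of Serpina3c, 3.32% of Serpina3f, 0.702% of Serpina3i, 1.46% of Serpina3k, 2.22% of Serpina3m and 0.0887% of Serpina3n. Serpina3g stood apart at 29.6%, because 1170 of its 2676 exon bases (43.7%) also lie in exons of a pseudogene, Gm56487, annotated on the same strand. Gm56487 has no entry of its own in the count table. Serpina3k and Serpina3m also overlap, by 60 exon bases. How the authors' counting treated reads from overlapping or near-identical stretches is not given in the sources used here, so the levels of Serpina3g, and to a smaller extent of Serpina3f, Serpina3m and Serpina3k, are uncertain on that account.

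The family's RNA in pmWAT was almost entirely Serpina3n and Serpina3c. Together they held 96.5% ± 1.02 of the 8 genes' summed CPM in fl/fl (SD, n = 7) and 95.9% ± 1.06 in iADKO (SD, n = 6). The summed level of the 8 genes was 421.9 ± 99.1 CPM in fl/fl and 228.3 ± 45.1 CPM in iADKO, with 289.4 CPM the lowest fl/fl mouse and 302.5 CPM the highest iADKO mouse. The share held by Serpina3n was 53.7% ± 7.21 in fl/fl and 56.6% ± 5.66 in iADKO, a difference smaller than the spread between mice.

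Per kilobase of exon, which allows levels to be compared between genes, Serpina3n came first at 59.3 ± 20.1 CPM per kb in fl/fl, followed by Serpina3c at 29.2 ± 3.04 (SD, n = 7 mice throughout). A wide gap then separated them from Serpina3b at 1.23 ± 0.339, Serpina3k at 0.987 ± 0.621, Serpina3m at 0.888 ± 0.706, Serpina3g at 0.792 ± 0.461 and Serpina3f at 0.564 ± 0.160 CPM per kb. These 5 genes did not differ from their neighbors in the order beyond their spread over mice. Serpina3i was last, at 0.0783 ± 0.117 CPM per kb. In iADKO the first pair kept their places, with Serpina3n at 33.4 ± 9.57 and Serpina3c at 14.9 ± 2.63 CPM per kb (SD, n = 6 mice throughout). The middle of the order differed between the genotypes: in iADKO Serpina3g (1.08 ± 0.255) and Serpina3f (0.974 ± 0.312) stood above Serpina3b (0.558 ± 0.127), and Serpina3m (0.242 ± 0.0952) and Serpina3k (0.192 ± 0.0735) stood below it, with Serpina3i again last at 0.0935 ± 0.0287 CPM per kb. Serpina3g and Serpina3f, and likewise Serpina3m and Serpina3k, did not differ from each other beyond their spread in iADKO. The lengths are those of all annotated exons merged, which overstates the length of a gene whose long isoforms are not made.

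The comparison of the genotypes asks how loss of lamin A/C in adipocytes bears on this family at 2 weeks posttamoxifen. Across all 16753 genes tested, 5104 (30.5%) passed an adjusted p of 0.05 in edgeR's quasi-likelihood test, 2737 of them (16.3%) lower and 2367 (14.1%) higher in iADKO. Of the 8 Serpina3 genes, 5 were called lower (Serpina3b, Serpina3c, Serpina3k, Serpina3m and Serpina3n), 1 was called higher (Serpina3f) and 2 were not called (Serpina3g and Serpina3i). The genes were chosen on this contrast, so nothing is read from these counts against the background. The CPM values of the 2 genotypes did not overlap for 2 of the 8 genes, Serpina3c and Serpina3k, and for 1113 (6.64%) of all genes tested.

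**Figure D1:**
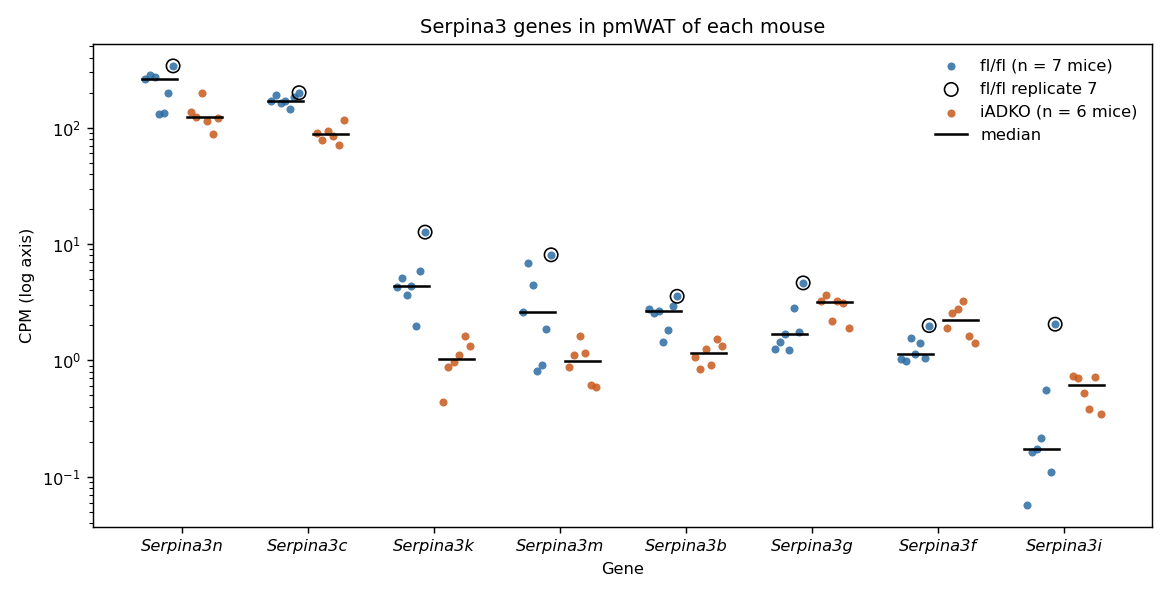
CPM of the 8 Serpina3 genes on a log axis, 1 point per mouse, for fl/fl (n = 7) and iADKO (n = 6), with the median as a line and fl/fl replicate 7 circled. The iADKO points of Serpina3c and Serpina3k all lie below the fl/fl points, and fl/fl replicate 7 is the highest fl/fl mouse for all 8 genes.

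Serpina3n, the most abundant member and the one known to act on granzyme B and elastase, ranged in fl/fl from 132.1 CPM through a median of 263.1 CPM to 339 CPM. In iADKO it ranged from 87.7 CPM through a median of 122.9 CPM to 199.7 CPM. The ranges overlapped: fl/fl replicates 4 and 5, at 132.1 and 134.8 CPM, sat at the level of the iADKO mice, while all 6 iADKO mice lay below the fl/fl median and 4 of them below the lowest fl/fl mouse. The fitted log2 fold change was -0.83 (SE 0.24).

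Serpina3c, the second most abundant member, was the steadiest of the family within a genotype. It ranged in fl/fl from 145.1 CPM through a median of 169.6 CPM to 199.6 CPM, a coefficient of variation of 10.4%. In iADKO it ranged from 70.4 CPM through a median of 87.8 CPM to 115.9 CPM. Every iADKO mouse was below every fl/fl mouse, the gap between the groups was 115.9 to 145.1 CPM, and the log2 fold change was -0.97 (SE 0.11).

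Serpina3k, the contrapsin gene, had counts between 9 and 235 per library. In fl/fl it ranged from 1.97 CPM through a median of 4.40 CPM to 12.7 CPM, and in iADKO from 0.438 CPM through a median of 1.03 CPM to 1.62 CPM. Again every iADKO mouse was below every fl/fl mouse. Its log2 fold change of -2.35 (SE 0.40) was the largest in size among the 8 genes in the fit to all libraries, with a group mean in fl/fl 5.14 times that in iADKO.

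Serpina3m, the neighbor of Serpina3k and its closest copy by coding sequence, varied 10.04-fold among the fl/fl mice. It ranged from 0.805 CPM through a median of 2.59 CPM to 8.08 CPM in fl/fl, and from 0.589 CPM through a median of 0.998 CPM to 1.64 CPM in iADKO. The groups overlapped, since fl/fl replicates 4 and 5 at 0.805 and 0.911 CPM lay within the iADKO range and only 2 of the 6 iADKO mice lay below the lowest fl/fl mouse. The log2 fold change was -1.86 (SE 0.54).

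Serpina3b had counts of 18 to 66. It ranged from 1.45 CPM through a median of 2.66 CPM to 3.56 CPM in fl/fl, and from 0.840 CPM through a median of 1.16 CPM to 1.53 CPM in iADKO. Only the highest iADKO mouse, replicate 5, reached above the lowest fl/fl mouse, replicate 4. The log2 fold change was -1.13 (SE 0.21).

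Serpina3f, which shares a cysteine codon at P1 with Serpina3g, went the other way. Its counts were 18 to 68. It ranged from 0.988 CPM through a median of 1.13 CPM to 1.99 CPM in fl/fl, and from 1.42 CPM through a median of 2.23 CPM to 3.26 CPM in iADKO. All 6 iADKO mice were above the fl/fl median and 3 were above the highest fl/fl mouse. The log2 fold change was 0.78 (SE 0.23).

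Serpina3g, the leukocyte cathepsin inhibitor, ranged from 1.24 CPM through a median of 1.68 CPM to 4.63 CPM in fl/fl, and from 1.92 CPM through a median of 3.16 CPM to 3.64 CPM in iADKO. All 6 iADKO mice lay above the fl/fl median, but 2 fl/fl mice, replicate 5 at 2.83 CPM and replicate 7 at 4.63 CPM, lay within or above the iADKO range. The log2 fold change was 0.44 (SE 0.30), and the gene was not called.

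Serpina3i was near the limit of detection, with 1 to 38 counts per library. In fl/fl it ranged from 0.0575 CPM through a median of 0.173 CPM to 2.05 CPM, and in iADKO from 0.344 CPM through a median of 0.615 CPM to 0.730 CPM. The order resembled that of Serpina3g: all 6 iADKO mice lay above the fl/fl median, and again fl/fl replicates 5 (0.557 CPM) and 7 (2.05 CPM) were the highest of their group. The log2 fold change of 0.24 (SE 0.64) was smaller than its standard error.

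**Figure D2:**
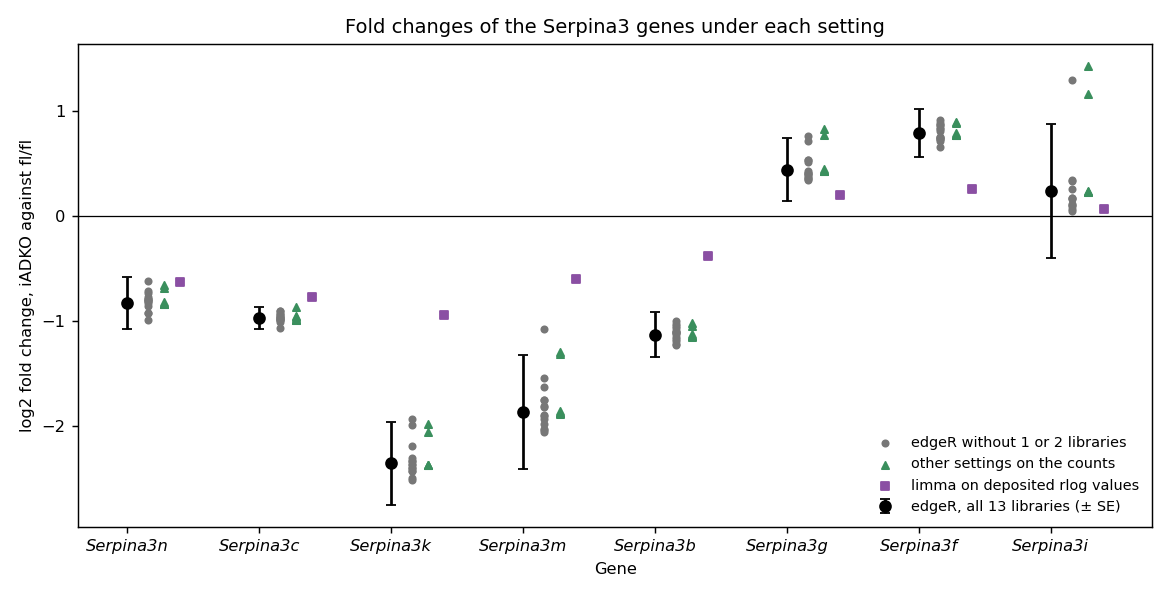
Log2 fold change, iADKO against fl/fl, of the 8 Serpina3 genes in edgeR over all 13 libraries (black, ± SE), without 1 or 2 libraries (gray), under the other settings on the counts (green) and in limma on the deposited rlog values (purple). Each gene keeps its sign under every setting in which it was tested, and for Serpina3k, Serpina3m and Serpina3b the rlog value lies nearer to 0 than every fit to the counts.

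Libraries with high or low values were shared between members, so the fit was repeated without them. Fl/fl replicate 7 was the highest fl/fl library for all 8 genes. Without it, the log2 fold changes were -0.71 for Serpina3n, -1.99 for Serpina3k, -1.54 for Serpina3m and 0.76 for Serpina3g, which was then called. Serpina3i did not pass the filter without that library.

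Each library name carries a number, and mice with nearby numbers were put into 1 animal-number series. The names do not mark such series, so their bounds are a choice made here. The number of iADKO replicate 1 stands apart from the others in its series, and no other bounds were tested. Of the series, 2 hold both genotypes. In one (fl/fl replicates 1, 2 and 3 and iADKO replicates 1 and 2) the log2 differences in mean log2 CPM were -1.08 for Serpina3n, -1.05 for Serpina3c, -2.59 for Serpina3k, -2.01 for Serpina3m, -1.40 for Serpina3b, 0.86 for Serpina3f, 1.20 for Serpina3g and 1.84 for Serpina3i. In the other (fl/fl replicates 4 and 5 and iADKO replicates 4 and 6) they were -0.17 for Serpina3n, -0.66 for Serpina3c, -1.22 for Serpina3k, -0.04 for Serpina3m, -0.52 for Serpina3b, 0.73 for Serpina3f, 0.38 for Serpina3g and 0.03 for Serpina3i. All 8 signs were the same in both series, but the differences of Serpina3n, Serpina3m and Serpina3i were near 0 in the second. The labels do not say what a series shares, and the difference between the series was not tested. With the series as a block, 3 of the 8 genes were called (Serpina3b, Serpina3c and Serpina3k), and 11.9% of all genes. In that fit only the 9 of 13 libraries in the 2 shared series carry the difference between the genotypes.

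Because Serpina3k is best known from liver, the liver markers of the same libraries are given beside them. Albumin (Alb), the main plasma protein made by hepatocytes, was at 181.1 CPM in fl/fl replicate 2 and 121.7 CPM in fl/fl replicate 7, against 7.04 to 20.4 CPM in the other 5 fl/fl mice and 4.25 to 16.6 CPM in iADKO. The summed level of the 12 hepatocyte markers was 9.77 to 271.5 CPM in fl/fl and 8.58 to 27.8 CPM in iADKO. Only 4 of the 12 could be tested, and 1, Alb, was lower (log2 fold change -2.57, SE 0.82, adjusted p = 0.0323), a call made in 6 of the 13 edgeR fits that leave out 1 library. The alpha-1-antitrypsin genes Serpina1a to Serpina1e, neighbors in the wider clade A cluster, summed to 17.1 and 24.6 CPM in fl/fl replicates 2 and 7 and to 0.456 to 2.13 CPM in the other fl/fl mice. Serpina3m was highest in those same 2 mice, at 6.92 and 8.08 CPM. Serpina3k was highest in replicate 7 at 12.7 CPM, but in replicate 2, the mouse with the most Alb, it was at 5.10 CPM, below the 5.91 CPM of replicate 6.

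Without both fl/fl replicates 2 and 7, the log2 fold change of Serpina3k was -1.93 and that of Serpina3m was -1.08, and the second was no longer called. Serpina3n, at -0.62, was not called in that fit either. Serpina3c at -0.91, Serpina3b at -1.004 and Serpina3f at 0.87 were still called. The part of liver RNA in the levels of Serpina3k and Serpina3m was not tested.

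**Figure D3:**
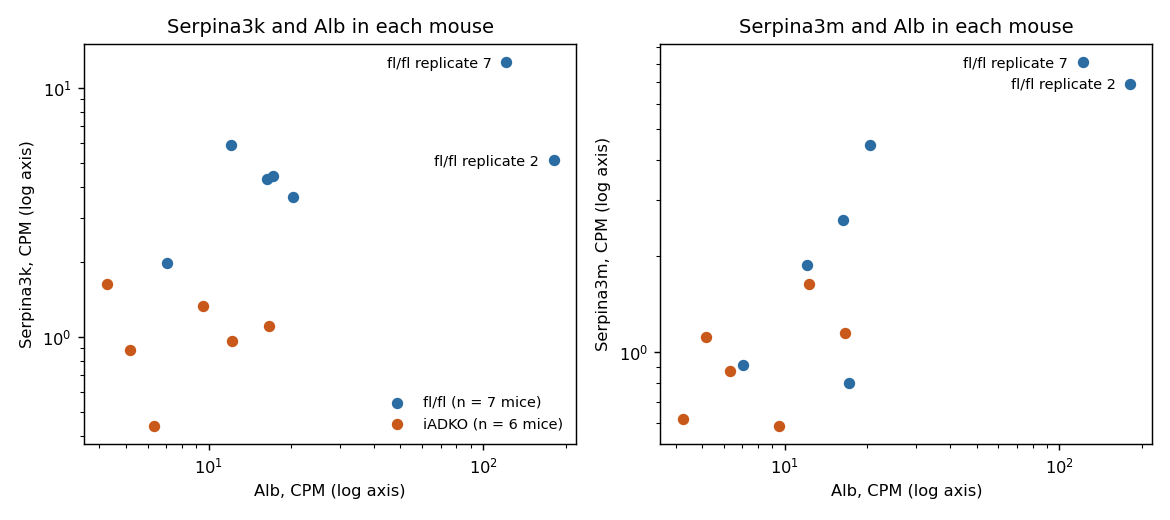
CPM of Serpina3k (left) and Serpina3m (right) against Alb, on log axes, 1 point per mouse. Fl/fl replicates 2 and 7 lie at 181.1 and 121.7 CPM of Alb, apart from the other 11 mice. For Serpina3k every fl/fl mouse lies above every iADKO mouse.

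Leukocyte markers are given beside Serpina3f, Serpina3g and Serpina3i, the 3 members with a positive log2 fold change. Of these only Serpina3f was called, and for Serpina3g and Serpina3i fl/fl replicate 7 lay above every iADKO mouse. The summed level of 9 macrophage markers was 1966 to 2497 CPM in 5 of the fl/fl mice, 5264 CPM in fl/fl replicate 5, 3487 CPM in fl/fl replicate 7, and 3049 to 5279 CPM in iADKO. The 10 lymphocyte markers summed to 42.9 to 51.1 CPM in the same 5 fl/fl mice, to 65.6 and 72.7 CPM in fl/fl replicates 5 and 7, and to 63.2 to 97.1 CPM in iADKO. Replicates 5 and 7 were thus the highest fl/fl mice for both marker lists as well as for Serpina3g and Serpina3i. For Serpina3f, replicates 7 (1.99 CPM) and 3 (1.56 CPM) were the highest. The part of leukocyte RNA in these levels was not tested.

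The adipocyte markers moved with the genotype, and they are set beside each member here. Their mean log2 CPM was 10.32 ± 0.27 in fl/fl and 9.38 ± 0.28 in iADKO (SD over 7 and 6 mice), a difference of -0.94. On the same log2 CPM scale the differences were -0.98 for Serpina3c, -1.05 for Serpina3b and -0.79 for Serpina3n. After subtraction of each mouse's adipocyte marker mean they were -0.04 for Serpina3c, -0.11 for Serpina3b and 0.15 for Serpina3n, each smaller than the SD within a genotype. Serpina3k kept a difference of -1.21 after subtraction, against an SD of 0.72 in fl/fl and 0.66 in iADKO. Serpina3m kept one of -0.47, against 1.20 and 0.65. Both fl/fl means include replicate 7, the highest fl/fl mouse in CPM for both genes, and the subtraction was not repeated without it. Before subtraction the differences were -2.15 for Serpina3k and -1.41 for Serpina3m. Serpina3f, Serpina3g and Serpina3i differed by 0.72, 0.54 and 0.78 before subtraction and by 1.66, 1.48 and 1.71 after it. For every member, subtraction of the same -0.94 accounts for the gap between the values before and after. The values near 0 for Serpina3c, Serpina3b and Serpina3n thus restate that their own differences lay near -0.94. The part of adipocyte RNA in these differences was not tested.

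**Figure D4:**
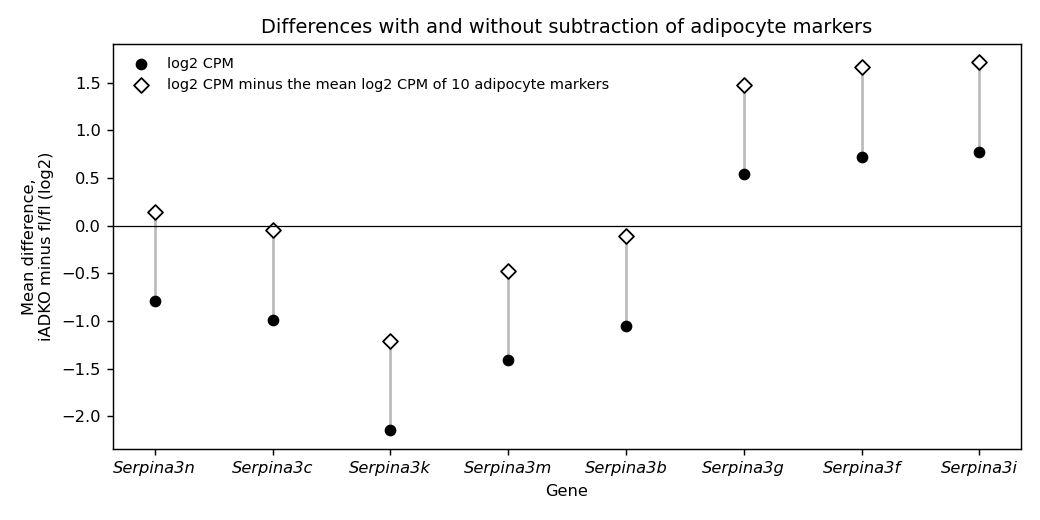
Mean difference, iADKO minus fl/fl, in log2 CPM of each Serpina3 gene (filled circles) and in log2 CPM minus the mean log2 CPM of 10 adipocyte markers of the same mouse (open diamonds). The diamonds of Serpina3c, Serpina3b and Serpina3n lie at -0.04, -0.11 and 0.15, those of Serpina3f, Serpina3g and Serpina3i at 1.48 to 1.71.

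Within a genotype, some pairs of members varied together from mouse to mouse. With each genotype's mean subtracted from log2 CPM, Pearson's r over the 13 mice was 0.90 for Serpina3n with Serpina3m (Spearman's rho 0.86, and r = 0.83 without the 2 mice farthest from the median of Serpina3m). For Serpina3g with Serpina3i, r was 0.88 (rho 0.75, and 0.64 without the 2 mice farthest in Serpina3g). Without fl/fl replicate 7 these values were 0.87 and 0.72. Serpina3f was next nearest to Serpina3g, with r = 0.60. Serpina3k and Serpina3m, the closest copies by coding sequence, had r = 0.43, which fell to -0.17 without the 2 mice farthest in Serpina3k. Over the 28 pairs r was above 0 in 24, and without fl/fl replicate 7 it was below 0 in 13, down to -0.69 for Serpina3c with Serpina3g, -0.63 for Serpina3i with Serpina3k and -0.54 for Serpina3g with Serpina3k. These are descriptions over mice that share library preparation and depth within each sample, and the 6 members with fewer counts carry more counting error.

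**Figure D5:**
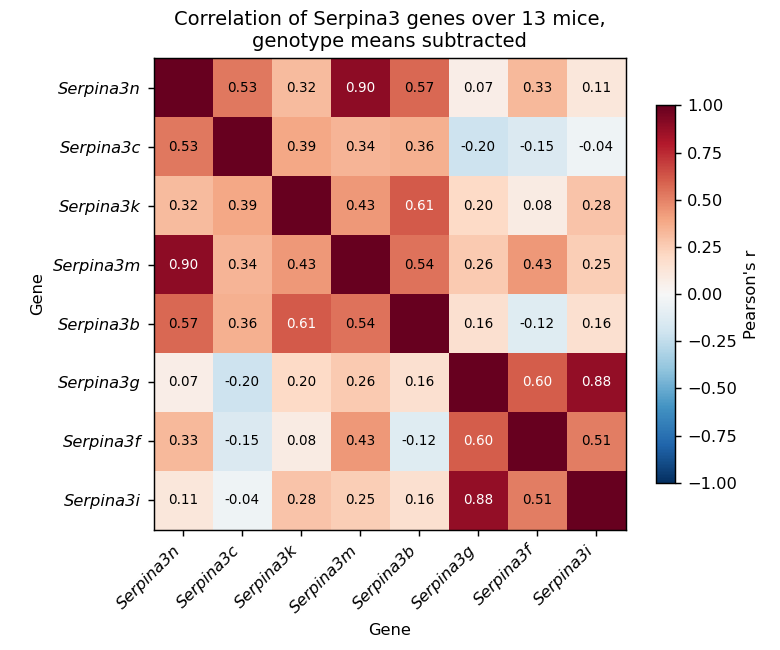
Pearson's r between the 8 Serpina3 genes over 13 mice, from log2 CPM with each genotype's mean subtracted. The values for Serpina3n with Serpina3m (0.90) and Serpina3g with Serpina3i (0.88) are the highest of the 28 pairs.

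By the same measure over all genes tested, the 5 genes most like each member with at least 1 CPM on average were found. For Serpina3n they were Rtn4 (r = 0.93), Tmem167 (0.91), Hnrnpab (0.90), Serpina3m (0.90) and Eif3j1 (0.88). Serpina3m was nearest to Hnrnpab (0.92), Serpina3n, Hp, the acute-phase protein haptoglobin (0.88), Spryd4 (0.88) and Tatdn2 (0.87). Serpina3c was nearest to Gm17024 (0.92), Agtr1a (0.92), Mtmr2 (0.92), Stk3 (0.91) and Mogat1 (0.90), and its r with the adipocyte marker mean was 0.71, the highest of the 8 members.

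Serpina3g had the closest likenesses of all: Map3k8 (0.98), Ccn4 (0.95), Il4ra (0.93), Saa3, the acute-phase gene serum amyloid A3 (0.93), and Ccl4, a chemokine (0.92). These 5 values were 0.85 to 0.96 without fl/fl replicate 7. Serpina3f was nearest to Igfbp7 (0.87), Nans (0.86), Ighv1-31 (0.85), Nt5dc2 (0.84) and Noc4l (0.84). Serpina3k was nearest to Mrpl27 (0.90), Ndufb11 (0.88), Fam162a (0.87), Timm44 (0.87) and Gm12338 (0.86), and Serpina3b to Gtpbp4 (0.87), Gm4013 (0.87), Gm32200 (0.86), Plaa (0.86) and Igkv3-12 (0.86). Values of this size are the top of 16753 genes over only 13 mice and are given as a description.

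The promoters are shown because the members fall into sequence groups there too. RefSeq promoter sequences (GRCm38.p6, 300 bases with 250 before the start site) were found for 6 of the 8 genes. Those of Serpina3c and Serpina3n were identical at 93.5% of 294 aligned bases. Serpina3f was identical with Serpina3g at 83.7% of 202 bases and with Serpina3i at 83.2% of 268 bases, and Serpina3c with Serpina3f at 69.8%. Capitals mark matches, on either strand, to 5 motifs: TTCNNNGAA (STAT), TTGCNNAA (C/EBP), GGNNTTTCC (NF-kB), GAAANNGAA (interferon response) and AGAACA (glucocorticoid receptor). The first of the 2 RefSeq promoters of Serpina3f is given.
Serpina3c, chr12:104153823-104154122, minus strand: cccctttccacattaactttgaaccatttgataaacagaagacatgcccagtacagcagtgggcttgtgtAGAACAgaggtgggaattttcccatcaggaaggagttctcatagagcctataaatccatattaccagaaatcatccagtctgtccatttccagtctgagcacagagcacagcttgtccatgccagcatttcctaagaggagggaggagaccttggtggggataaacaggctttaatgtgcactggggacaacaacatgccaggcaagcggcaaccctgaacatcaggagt
Serpina3n, chr12:104406458-104406757, plus strand: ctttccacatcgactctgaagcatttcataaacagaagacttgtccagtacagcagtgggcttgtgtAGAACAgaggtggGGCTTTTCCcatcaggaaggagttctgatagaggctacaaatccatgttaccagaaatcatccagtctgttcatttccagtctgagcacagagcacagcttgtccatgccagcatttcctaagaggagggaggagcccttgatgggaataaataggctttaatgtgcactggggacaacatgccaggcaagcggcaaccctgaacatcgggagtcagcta
Serpina3f, chr12:104214294-104214593, plus strand: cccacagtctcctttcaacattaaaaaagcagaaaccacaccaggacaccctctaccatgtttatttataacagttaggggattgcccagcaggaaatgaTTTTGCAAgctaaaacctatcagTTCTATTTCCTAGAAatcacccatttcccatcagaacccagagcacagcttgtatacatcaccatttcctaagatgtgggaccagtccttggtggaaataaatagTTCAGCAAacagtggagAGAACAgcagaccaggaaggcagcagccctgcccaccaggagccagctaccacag
Serpina3g, chr12:104235897-104236196, plus strand: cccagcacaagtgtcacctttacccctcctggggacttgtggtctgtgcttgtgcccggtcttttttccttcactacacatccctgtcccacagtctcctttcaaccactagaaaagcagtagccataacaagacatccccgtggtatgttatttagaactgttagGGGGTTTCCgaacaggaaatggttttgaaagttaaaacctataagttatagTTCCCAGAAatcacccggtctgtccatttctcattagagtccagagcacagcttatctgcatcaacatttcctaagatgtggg
Serpina3i, chr12:104262872-104263171, plus strand: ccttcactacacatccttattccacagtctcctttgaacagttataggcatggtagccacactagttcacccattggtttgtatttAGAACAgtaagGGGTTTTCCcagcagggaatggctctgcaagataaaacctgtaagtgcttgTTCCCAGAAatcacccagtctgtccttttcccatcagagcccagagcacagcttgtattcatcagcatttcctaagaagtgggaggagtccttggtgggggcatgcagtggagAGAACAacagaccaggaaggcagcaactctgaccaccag
The STAT letters occurred in Serpina3f, Serpina3g and Serpina3i, and in 8.3% of all 32851 promoters. The NF-kB letters occurred in Serpina3g, Serpina3i and Serpina3n, and in 5.82% of all promoters. In Serpina3g and Serpina3i the STAT match starts 51 bases downstream of the NF-kB match in both, at -33 and -102 from the start site, and 0.551% of all promoters hold both motifs. These 2 promoters are themselves identical at 79.7% of 231 aligned bases, so their shared spacing does not count as 2 separate cases. The C/EBP letters occurred in Serpina3b and Serpina3f (10.8% of all promoters), as did the interferon response letters (8.56%), which in Serpina3f overlap the STAT match. The glucocorticoid receptor letters occurred in Serpina3b, Serpina3c, Serpina3f, Serpina3i and Serpina3n, and in 19% of all promoters. A match is a run of letters and not a site of binding.

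Among the other genes with a Serpina3 symbol, 6 were in the count table and 2 could be tested. Serpina3j, whose gene lies between Serpina3i and Serpina3k, was lower in iADKO, at 2.85 ± 1.01 CPM in fl/fl (SD, n = 7) and 0.824 ± 0.653 CPM in iADKO (SD, n = 6), with a log2 fold change of -1.79 (SE 0.39, adjusted p = 0.0044). In iADKO, 5 of the 6 mice were below the lowest fl/fl mouse. Serpina3h, a transcribed pseudogene beside Serpina3g and Serpina3i, was at 0.615 ± 0.472 and 0.768 ± 0.351 CPM and was not called (adjusted p = 0.615). All 1226 of its exon bases also lie in a second annotated Serpina3h entry, a long noncoding RNA on the same strand. Its level is uncertain on that account. Serpina3a and the pseudogenes Serpina3d-ps, Serpina3e-ps and Serpina3l-ps had at most 7 counts in any library.

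None of the 13 other clade A serpins in the table passed the filter. Serpina1b, one of the alpha-1-antitrypsin genes, was at 3.45 ± 5.27 CPM in fl/fl (SD, n = 7) and 0.513 ± 0.402 CPM in iADKO (SD, n = 6), and Serpina12 (vaspin), an adipokine, was at 0.234 ± 0.207 CPM in fl/fl and 0.0954 ± 0.0853 CPM in iADKO. Of 14 testable serpins from clades B to I, 4 rose in iADKO and none fell: Serpini1 (neuroserpin, log2 fold change 0.54, adjusted p = 0.0231), Serpinb6a (0.36, adjusted p = 0.0035), Serpinb8 (0.26, adjusted p = 0.016) and Serpine2 (protease nexin 1, 0.22, adjusted p = 0.025). Their list had a median log2 fold change of 0.19, against 0.03 over all genes tested. Serping1, the C1 inhibitor, at 0.29 on the log2 scale (adjusted p = 0.0803), did not pass the threshold.

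Of 22 testable proteases, 8 rose in iADKO and none fell in edgeR, with a median log2 fold change of 0.32, against 0.03 over all genes tested. The mast cell proteases Cma1 (0.90, SE 0.16), Mcpt4 (0.88, SE 0.17) and Tpsb2 (0.64, SE 0.13) were among the 8, with adjusted p = 0.0013, 0.002 and 0.0024. Gzmb, the granzyme B gene, was at 0.899 ± 0.271 CPM in fl/fl and 1.41 ± 0.316 CPM in iADKO (log2 fold change 0.64, SE 0.23, adjusted p = 0.046). Mmp9 (0.49), Ctsh (0.50) and Ctsc (0.29) also rose. Cathepsins B and L (Ctsb and Ctsl), the proteases named for Serpina3g, had log2 fold changes of 0.20 and 0.19 (adjusted p = 0.131 and 0.208), and Ctsg and Elane, from neutrophils, had 0.81 and 0.36 (adjusted p = 0.462 and 0.547). Klk1, a kallikrein, at -1.22 (SE 0.71, adjusted p = 0.208), and Ctss, cathepsin S, at 0.85 (SE 0.35, adjusted p = 0.0806), did not pass the threshold either. Without fl/fl replicate 7 Ctsg was at 2.15 and was called (adjusted p = 0.0248), and without fl/fl replicate 4 Klk1 was at 0.12. Gzmb and Ctsc were each called in 4 of the 13 edgeR fits that leave out 1 library. Of the mast cell markers, Cpa3 (0.67, adjusted p = 0.0023), Fcer1a (0.68) and Ms4a2 (0.54) were higher in iADKO and Kit (-0.59) was lower. Cpa3 was called in all 13 of the fits that leave out 1 library, Fcer1a in 3, and Ms4a2 and Kit in 0. The part of cell numbers in the differences of the proteases was not tested.

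Of 27 testable cytokines, receptors and signal proteins upstream of acute-phase genes, 4 rose and 1 fell. The 4 were Tnf (0.84), Nfkbia (0.31), Nfkb2 (0.27) and Nfkb1 (0.23), and the 1 that fell was Nr3c1, the glucocorticoid receptor (-0.23). Stat3 (0.08, adjusted p = 0.484) and its feedback inhibitor Socs3 (-0.05, adjusted p = 0.906) did not pass the threshold, and Il6 had too few counts to test. The list's median log2 fold change was 0.13, against 0.03 over all genes tested. Of the 13 edgeR fits that leave out 1 library, Tnf was called in 10, Nfkbia in 7, Nr3c1 in 6, Nfkb2 in 4 and Nfkb1 in 3.

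Of 21 testable acute-phase genes other than the Serpina3 family, 5 (23.8%) fell and none rose. Over all genes tested, 16.3% were lower and 14.1% higher. The list's median log2 fold change was -0.33, against 0.03 over all genes tested. The 5 were Orm1 (orosomucoid 1, -0.96, adjusted p = 0.0115), Orm3 (-0.55, adjusted p = 0.0216), Lrg1 (-0.51, adjusted p = 0.0327), Nnmt (-0.46, adjusted p = 0.0037) and Steap4 (-0.33, adjusted p = 0.0292). Saa3 (-1.36, SE 1.02, adjusted p = 0.327), Lcn2 (0.73, SE 0.54, adjusted p = 0.315) and Hp (-0.10, SE 0.21, adjusted p = 0.731) did not pass the threshold. Saa3 was at 654.8 CPM in fl/fl replicate 7, against 8.81 to 88.4 CPM in the other 6 fl/fl mice and 19.9 to 58.6 CPM in iADKO. Without that library its log2 fold change was 0.76 (adjusted p = 0.307) and that of Hp 0.06 (adjusted p = 0.81), so both turned direction, and that of Lcn2 was 1.11 (adjusted p = 0.117). Of the 13 edgeR fits that leave out 1 library, Orm1 was called in 13, Orm3 in 12, Lrg1 in 7 and Steap4 in 6. The part of cell numbers in the differences of the acute-phase genes was not tested.

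Of 22 testable interferon gamma response genes, 5 rose and 2 fell, with a median of 0.09, against 0.03 over all genes tested. The largest rises were in Cxcl10 (1.69, adjusted p = 0.00016), Ciita (0.77, adjusted p = 0.00086) and Irf8 (0.67, adjusted p = 0.0028), Psmb8 rose by 0.34 on the log2 scale, and Nos2 (-0.51, adjusted p = 0.0392) fell, a call made in 4 of the 13 fits without 1 library. None of 12 glucocorticoid-induced genes passed the threshold in edgeR or DESeq2, and 1 had an unadjusted p under 0.05. Over these lists and the other Serpina3 genes, 30 of 119 genes were called, against 30.5% of all genes tested.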

How the data were processed

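Total RNA of pmWAT from 13 mice was sequenced as strand-specific mRNA libraries. Per the labels and methods, the authors checked reads with FastQC (v0.12.1), aligned them with STAR (v2.7.11a) to mm39 and tested genes with DESeq2 (version not given). The counting tool and annotation are not given in the sources used here. The authors deposited raw counts per gene for 33618 identifiers, and log2 values made from them with DESeq2's regularized log (rlog), which served for 1 alternative. Genotypes were taken from the sample labels. Each library is a different mouse, and pairs of libraries of 1 genotype differed by chi-square statistics of 8.90 to 98.7 per degree of freedom, above counting error.

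Identifiers were matched to GENCODE vM39 (33184 found). Counts were filtered with filterByExpr, scaled by TMM and tested with edgeR's quasi-likelihood test (v4.0.16, robust, genotype only, Benjamini-Hochberg over all genes, threshold 0.05) in R (v4.3.3). SE is the log2 fold change divided by the root of F. CPM uses the TMM library sizes, and log2 CPM a prior count of 2. Alternatives used DESeq2 (v1.42.0) and limma (v3.58.1), and the edgeR and DESeq2 fits were tested on simulated counts. Precision of the low genes is limited by their counts.

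The Serpina3 genes and all gene lists were chosen with earlier results of these data known. Genes named from the lists are those with the 3 largest and 3 smallest log2 fold changes among the called, and a set of relevant cytokines, acute-phase genes, proteases and serpins whatever their values. The 5 genes most like a member are the 5 highest in Pearson's r. Some genes that this rule would name are not reported here.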

Additional observations from a re-analysis of the deposited data

Results flagged for a closer look

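2 values of the 8 Serpina3 genes stood far from the rest of their genotype, out of 16 gene and genotype groups looked at. About 1 group in 20 is singled out by chance in this way. Serpina3i in fl/fl replicate 7 was at 2.05 CPM (38 counts), against 0.557 CPM in the next fl/fl mouse, a gap of 0.749 of the group's whole range. Serpina3k in the same mouse was at 12.7 CPM (235 counts), against 5.91 CPM in the next, a gap of 0.632 of the range. Without that library the log2 fold change of Serpina3k was -1.99, and Serpina3i no longer passed the filter on low counts.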

How the results depend on the processing

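The 8 Serpina3 genes kept their signs under every setting in which they were tested. Over the fits without 1 replicate, 3998 to 6604 genes, 5 to 7 Serpina3 genes and 20 to 41 of the listed other genes were called, against 5104, 6 and 30. All 8 Serpina3 genes were tested in these fits, except that 7 were tested without fl/fl replicate 5 and 7 without fl/fl replicate 7. The fit without fl/fl replicate 7 called all 7 that it tested. The highest counts of all genes and of listed genes came without fl/fl replicate 5, and Serpina3f was not called without iADKO replicate 4. With the animal-number series, whose bounds were chosen here, as a block, 1986 genes, 3 Serpina3 genes and 12 listed genes were called. That fit takes the genotype difference from only 9 of the 13 libraries, those in series that hold both genotypes. The part of this loss of libraries in the lower numbers of calls was not tested. Same-numbered mice share only a number (residual r -0.026 to 0.217, over 0.1 in 3 of 6 pairs, and 2 of 6 iADKO mice correlated best with their own number). The replicate block, which drops fl/fl replicate 7, called 4839 genes, 36 listed genes and 8 Serpina3 genes, and gave 1.43 for the log2 fold change of Serpina3i. The fit without fl/fl replicates 2 and 7, chosen after seeing the data, called 4311 genes and 4 Serpina3 genes. Without a filter, 4 Serpina3 genes were called. On the rlog values, which shrink low genes, the log2 fold changes of Serpina3b, Serpina3c, Serpina3f, Serpina3k and Serpina3m were -0.38, -0.77, 0.25, -0.94 and -0.61. Depth limits Serpina3i above all, with 133 counts over all 13 libraries.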
